A study of Mus musculus with 48 samples.

Results

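The 10 genes described here are Trp53, which encodes the transcription factor p53, its inhibitor Mdm2, and 8 genes that p53 is known to activate: Cdkn1a, Ccng1, Sesn2, Trp53inp1, Bax, Bbc3, Pmaip1 and Phlda3. They were taken by name, without a threshold on their values, from the 23284 gene symbols of the deposited expression table, and all 10 were found. The table holds 48 single mouse cells. The cells came from embryonic stem cells of strain 129P2/OlaHsd that carried a doxycycline-inducible Mesp1, a transcription factor gene of early cardiovascular mesoderm. They differentiated in embryoid bodies, floating aggregates of cells, with doxycycline at 500 ng/ml from day 2.25 until day 3.25. On day 4, cells negative for propidium iodide, a dye that enters dead cells, were sorted and captured one by one on a Fluidigm C1 microfluidic device. All cells carried the inducible gene and all received doxycycline. There were no uninduced cells to compare with, and the labels name neither a clone nor separate cultures, so the 48 cells stand as 1 sample and no test was made across them. The sort removed dead cells before capture, so the apoptosis genes were read only in cells that still excluded the dye.

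The p53 protein is held low by MDM2, a ubiquitin ligase that marks it for degradation and whose gene p53 itself activates. When DNA is damaged or growth is stressed, p53 accumulates and switches on genes that halt the cell cycle, temper metabolism and growth, or start apoptosis at the mitochondrial membrane. Mouse embryonic stem cells are known for abundant p53, and these target genes are the usual transcript readout of its activity.

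p53 binds pairs of a half-site of 10 bases, written as 3 purines, C, A or T, A or T, G and 3 pyrimidines, which reads the same on both strands. Stretches of the RefSeq promoter windows (GRCm38.p6, 250 bases before to 50 after an annotated start) are printed because they show in which members, and in what arrangement, this pattern lies near the start. They are written 5′ to 3′ on the gene's strand. Capitals mark exact half-sites and, in Bax, Ccng1 and Cdkn1a, the partner half-site that departs from the pattern at 1 base.
Bax, chr7:45467065-45467135, minus strand: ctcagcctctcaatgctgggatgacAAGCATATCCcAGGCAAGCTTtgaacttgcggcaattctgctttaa
Mdm2, chr10:117710910-117710969, minus strand: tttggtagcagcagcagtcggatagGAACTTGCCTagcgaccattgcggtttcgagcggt
Ccng1, chr11:40755437-40755506, minus strand: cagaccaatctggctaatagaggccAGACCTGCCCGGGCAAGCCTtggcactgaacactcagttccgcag
Trp53, chr11:69580259-69580318, plus strand: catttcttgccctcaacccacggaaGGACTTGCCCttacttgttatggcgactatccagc
Cdkn1a, chr17:29090881-29090972, plus strand: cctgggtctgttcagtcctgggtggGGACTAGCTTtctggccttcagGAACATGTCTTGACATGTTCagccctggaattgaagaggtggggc
The RefSeq table gave 11 windows for 8 of the 10 members, and those of 5 members held an exact half-site, beside 8.36% of all 32851 windows of that length. A pair of half-sites with a spacer of at most 13 bases and at most 1 mismatch was present for Bax (spacer 1), Ccng1 (spacer 0) and Cdkn1a, beside 1.09% of windows. In Cdkn1a, 2 exact half-sites lay 12 bases apart and a further half-site with 1 mismatch followed the second directly. A pair with 0 mismatches was found in 24 windows, which is 0.0731% of all. The Cdkn1a window that held them belongs to the upstream of 2 annotated starts, which lie 2790 bases apart. No exact half-site was found in the windows of Bbc3, Phlda3 and Sesn2. A match is a match of letters and not evidence that p53 was bound in these cells. Trp53inp1 and Pmaip1 had no window.

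Expression is given as FPKM, a read count scaled by transcript length and library size, so levels can be set side by side between genes. A gene counted as detected in a cell at 1 FPKM or more, and a share of cells is followed by its exact 95% interval (Clopper-Pearson), which covers counting error only. An exact 0 is reported as listed at 0, because Hprt, a gene that all cells use, was also listed at 0 in 13 of 48 cells. The number of reads per cell is unknown. Between 4788 and 7010 genes were detected per cell (median 6212), and this number fell with the cell's number in the labels (Spearman's rho −0.82 over 48 cells). The median was 6506 genes in the 25 cells numbered up to 48 and 5711 in the 23 cells numbered above 48, so values are given in both sets where they differ. The 7 cells with fewest genes (C84, C87, C89, C90, C92, C93 and C95, 4788 to 5111 genes) are named where they carry a high value. The part of cell number and of detected genes in a level was not tested. As a check on the label of mesoderm, Eomes was detected in 35 cells, Mixl1 in 30 and T in 26. Mesp1 was also detected in 30 cells, but it cannot serve as a check, because reads of the inducible gene may be counted with it. Of 10 genes of the primitive streak and nascent mesoderm, Mesp1 among them, 9 reached 25% of cells, beside 35.8% of all symbols. Of markers of other cell types, 2 of 7 endoderm genes (Gata4 in 33 cells, which lateral mesoderm also expresses, and Foxa2 in 12), 1 of 6 neurectoderm genes (Otx2 in 24) and 3 of 12 endothelial and blood genes (Etv2 in 26, Kdr in 22, Gata2 in 15) did so, while Sox17 was detected in 1 cell, Sox1 in 2 and Cdh5 and Pecam1 in 0. The endoderm (28.6%), neurectoderm (16.7%) and endothelial and blood lists (25%) lay below the 35.8% of all symbols. Above it lay the pluripotency list, with 9 of 12 genes (75%), and the epithelial list, with 5 of 10 (50%). Transcripts of the pluripotency gene Nanog were detected in 46 cells.

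Trp53 itself was abundant in every cell, while its targets ranged from nearly universal (Bax) to nearly absent (Phlda3). Of the 10 members, 8 reached 1 FPKM in at least 25% of cells, beside 35.8% of all symbols. Phlda3 did not, and Bbc3 did so, of the settings run, only at a detection mark of 0.1 FPKM (41.7% of cells) or with each cell scaled to 1000000 (29.2%, and 31.2% with short RNA rows left out). A cell held between 2 and 8 members above the detection mark, with a median of 5. The plot of levels in each cell shows this order, in which Trp53 stands apart from the rest.

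**Figure D1:**
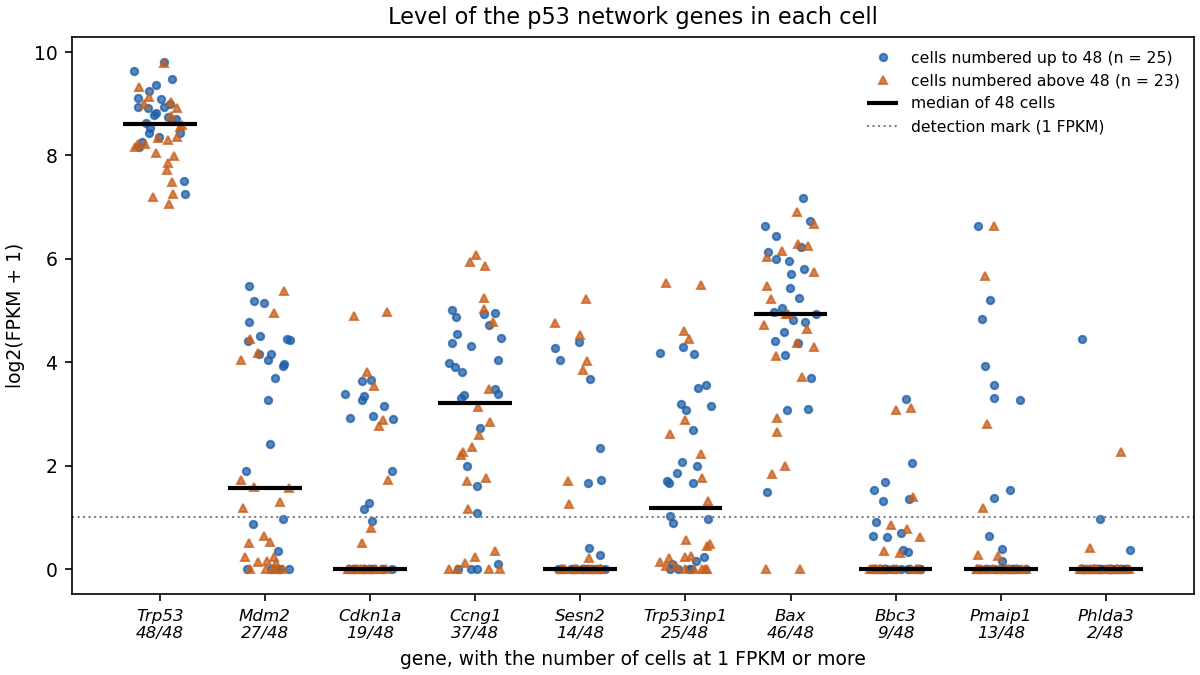
Expression of the 10 genes in each of 48 cells, as log2(FPKM + 1) on the vertical axis, with cells numbered up to 48 as circles and those above 48 as triangles. Bars mark the medians, and the number of cells at 1 FPKM or more (dotted line) stands under each gene: Trp53 lies at 133 to 894 FPKM in all 48 cells, and Sesn2, Bbc3, Pmaip1, Phlda3 and Cdkn1a have a median of 0.

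Trp53 (ENSMUSG00000059552.13, chromosome 11, 69580359 to 69591873, plus strand) was detected in 48 of 48 cells (100%, interval 92.6 to 100%). Its lowest value was 133 FPKM, in cell C87, its median 391 FPKM and its highest 894 FPKM, in cell C05. The middle of the cells lay between quartiles of 294 and 508 FPKM, and by its median Trp53 ranked 216 of 23284 symbols. Cells C51 (880 FPKM), C42 (795 FPKM) and C13 (714 FPKM) followed the highest cell closely. At the low end, C62 (146 FPKM), C92 (151 FPKM) and C43 (153 FPKM) lay near C87. The range was therefore continuous, and no cell was separated from the others. The median was 440 FPKM in cells numbered up to 48 and 313 FPKM in those above. A processed copy of the gene, Trp53-ps, lies elsewhere in the genome and has no row in the table, so reads shared with it cannot be told apart from those of Trp53.

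Trp53 was the highest of the 10 members in 48 of 48 cells. In 47 cells it exceeded the sum of the other 9, by a median factor of 4.94 over all cells. The exception was cell C92, among the cells with few detected genes, where Trp53 stood at 151 FPKM and the other 9 summed to 215 FPKM (a ratio of 0.704). That cell combined low Trp53 with 57.3 FPKM of Ccng1, 77.6 FPKM of Bax, 43.9 FPKM of Trp53inp1 and 29.98 FPKM of Mdm2. At the other end was cell C70, with Trp53 at 507 FPKM and a sum of 2.58 FPKM for the other 9. Over the 48 cells, the number of targets detected (Mdm2 included) had a rho of 0.26 with Trp53, −0.074 in cells numbered up to 48 and 0.35 in those above.

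Mdm2 (ENSMUSG00000020184.15, chromosome 10, 117688875 to 117710758, minus strand), the ubiquitin ligase that limits p53, was detected in 27 cells (56.2%, interval 41.2 to 70.5%). It was listed at 0 in 10 cells, its median was 1.98 FPKM and its highest value 43.7 FPKM, in cell C19. Cells C65 (40.4 FPKM), C08 (35.5 FPKM) and C04 (34.5 FPKM) came next. Cells that expressed Mdm2 did so at a median of 16.8 FPKM. Detection was more frequent at low cell numbers, with 17 of 25 cells up to 48 and 10 of 23 above, and the medians were 14.2 and 0.438 FPKM. Over the 48 cells, Mdm2 also had the highest correlation of all members with the number of detected genes (rho 0.47, 0.24 and 0.38 within the lower and the higher cell numbers). Within the lower cell numbers those of Pmaip1 (0.413), Trp53inp1 (0.292) and Trp53 (0.242) were higher than that of Mdm2 (0.237).

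Cdkn1a (ENSMUSG00000023067.14, chromosome 17, 29090976 to 29100727, plus strand) encodes p21, the inhibitor of cyclin-dependent kinases through which p53 halts the cycle. It was detected in 19 cells (39.6%, interval 25.8 to 54.7%) and listed at 0 in 26. The highest values were 30.4 FPKM in cell C56 and 28.6 FPKM in cell C95, which has few detected genes. The next, 13.1 FPKM in C79, was under 50% of either. The other detecting cells lay between 1.24 and 11.6 FPKM. The median among the 19 cells was 7.94 FPKM. Cells numbered up to 48 contributed 12 of the 19. The annotated transcript AC167363.2 overlaps Cdkn1a on the opposite strand, has no row in the table, and its reads cannot be told apart from those of Cdkn1a without strand.

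Ccng1 (ENSMUSG00000020326.7, chromosome 11, 40748552 to 40755311, minus strand) encodes cyclin G1, a p53 target that feeds back on MDM2. It was detected in 37 cells (77.1%, interval 62.7 to 88.0%), listed at 0 in 7, and had a median of 8.35 FPKM. Its highest values were 66.1 FPKM in cell C76, 60.5 FPKM in C56 and 57.3 FPKM in C92, all in cells numbered above 48. Of these, C92 is among the cells with few detected genes. The next value was 36.7 FPKM in C53. Among cells up to 48 the highest value was 31.4 FPKM. The medians ran the other way, at 13.1 FPKM up to 48 and 3.78 FPKM above, so the cells of higher number spanned a wider range around a lower middle.

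Sesn2 (ENSMUSG00000028893.8, chromosome 4, 132492032 to 132510501, minus strand) encodes sestrin 2, which restrains growth signalling through mTORC1 under stress. It was detected in 14 cells (29.2%, interval 16.95 to 44.1%) and listed at 0 in 31. Cell C89, with few detected genes, held the highest value (36.5 FPKM), followed by C69 (25.96 FPKM), C62 (22 FPKM) and C15 (19.98 FPKM). The median of the detecting cells was 14.3 FPKM, and 9 of the 14 lay at 11.8 FPKM or more. It was found in 7 cells on each side of cell number 48. The gene Gm12981 lies within Sesn2 and has no row of its own in the table.

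Trp53inp1 (ENSMUSG00000028211.11, chromosome 4, 11156431 to 11174379, plus strand) encodes a stress protein with roles in autophagy and apoptosis. It was detected in 25 cells (52.1%, interval 37.2 to 66.7%), listed at 0 in 9 and between 0 and 1 FPKM in 14. The median was 1.27 FPKM. The highest values, 45.3 FPKM in cell C90 and 43.9 FPKM in C92, were both in cells with few detected genes, and the next was 23.3 FPKM in C59. Detecting cells had a median of 6.39 FPKM. As with Mdm2, detection was more frequent up to cell number 48 (16 of 25 cells) than above (9 of 23).

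Bax (ENSMUSG00000003873.11, chromosome 7, 45461697 to 45466898, minus strand) encodes the protein that forms pores in the outer mitochondrial membrane. It was the second most widespread member, detected in 46 cells (95.8%, interval 85.7 to 99.5%) and listed at 0 in 2. The median was 29.5 FPKM, between quartiles of 16.6 and 63.1 FPKM, and ranked 1789 of 23284 symbols. The highest value was 145 FPKM in cell C19, followed by C75 (118 FPKM), C09 (106 FPKM) and C53 (101 FPKM). Both cells at 0 were numbered above 48, and all 25 cells up to 48 were above the mark. The medians of the 2 sets were 32.1 FPKM and 25.2 FPKM. The annotated gene Gm45808 shares 915 bases with Bax on the same strand and has no row in the table.

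Bbc3 (ENSMUSG00000002083.13, chromosome 7, 16308393 to 16318205, plus strand) encodes PUMA, a BH3-only protein, one of the family that triggers BAX. It was detected in 9 cells (18.8%, interval 8.95 to 32.6%), listed at 0 in 28 and between 0 and 1 FPKM in 11. Its values were low throughout, with 8.82 FPKM in cell C08, 7.67 FPKM in C95, 7.45 FPKM in C69 and no other above 3.12 FPKM. C95 is among the cells with few detected genes. Detection was 6 of 25 cells up to number 48 and 3 of 23 above.

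Pmaip1 (ENSMUSG00000024521.8, chromosome 18, 66458533 to 66465565, plus strand) encodes NOXA, a BH3-only protein that binds MCL1. It was detected in 13 cells (27.1%, interval 15.3 to 41.8%), listed at 0 in 30 and present at high levels in a few. Cells C18 and C89 held 99.1 and 98.0 FPKM, C93 held 50.2, C32 held 35.8 and C43 held 27.4 FPKM, and the other 8 detecting cells lay between 1.28 and 14.2 FPKM. C89 and C93 are among the cells with few detected genes, whereas C18 (6878 genes) and C32 (6582 genes) are not. Detection was 9 of 25 cells up to number 48 and 4 of 23 above.

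Phlda3 (ENSMUSG00000041801.5, chromosome 1, 135766119 to 135769136, plus strand), whose protein competes with AKT for membrane lipids, was detected in 2 cells (4.17%, interval 0.509 to 14.3%). These were C32, at 20.8 FPKM, and C52, at 3.78 FPKM. It was listed at 0 in 43 cells, and cell C32 alone held 79.5% of the summed signal. Both of these cells also expressed Cdkn1a, at 9.24 and 6.40 FPKM.

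Spread was judged against other genes of like mean, by the squared coefficient of variation over a local regression on the mean. The 6 members whose mean reached 5 FPKM could be placed among 6266 genes, of which 10.5% lay more than 2-fold above the trend. Pmaip1 was the 1 member above that mark, at 3.27-fold (rank 199). Trp53 lay 1.51-fold above the trend. Trp53inp1 (1.03-fold), Bax (0.957-fold), Ccng1 (0.902-fold) and Mdm2 (0.803-fold) were near it, so their cell-to-cell spread was that of an average gene of their level. Cdkn1a, Sesn2, Bbc3 and Phlda3 fell below the mean needed.

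Cell by cell, the members were found in many combinations. The number of members detected was 2 in 5 cells, 3 in 4, 4 in 9, 5 in 9, 6 in 13, 7 in 5 and 8 in 3. The 3 cells with 8 members were C01, C33 and C52, and the 5 cells with 2 were C70, C77, C80, C81 and C87, all numbered above 48. The median was 6 members in cells up to 48 and 5 above. The count followed the number of detected genes (rho 0.50 over 48 cells, 0.41 and 0.32 within the lower and the higher cell numbers). Mdm2, Cdkn1a, Ccng1 and Bax were detected together in 14 cells. The BH3-only genes Bbc3 and Pmaip1 were both detected in 3 cells and neither in 29.

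**Figure D2:**
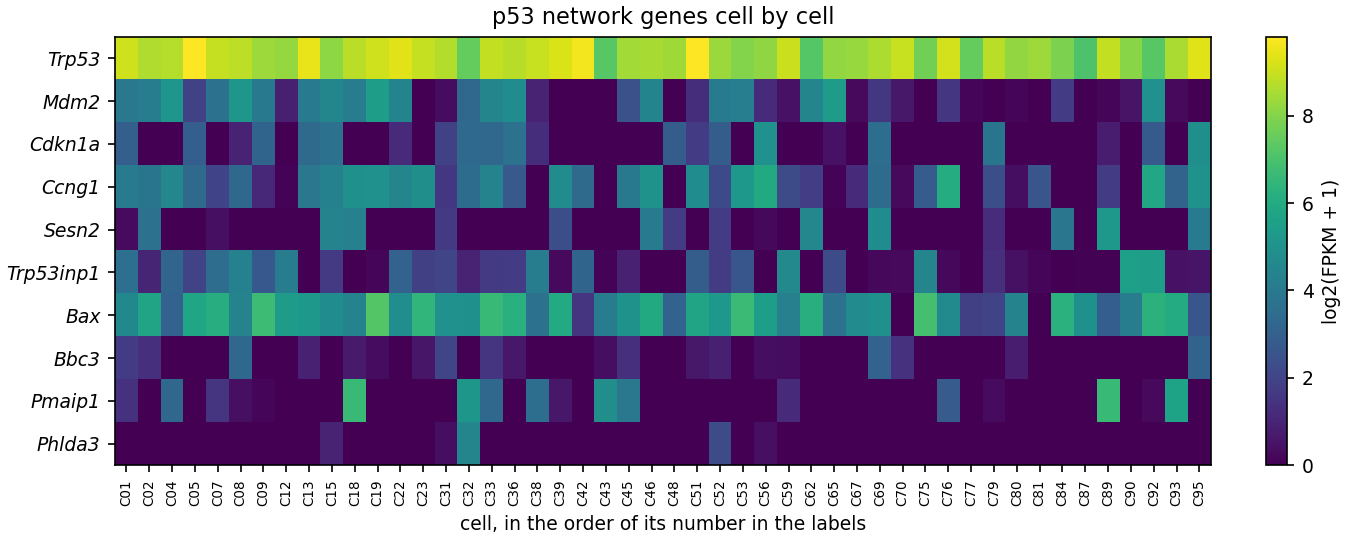
The 10 genes (rows) in each of 48 cells (columns, in order of cell number), coloured by log2(FPKM + 1) from dark (0) to yellow (highest). The row of Trp53 is bright in all 48 cells and that of Bax lies above the detection mark in 46, while Pmaip1 shows single bright cells such as C18 and C89, and Phlda3 shows C32.

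Correlations between members were weak, and a few pairs stood out. Spearman's rho was computed on log2(FPKM + 1) over the 48 cells for the 36 pairs of the 9 members detected in at least 5 cells, which leaves out Phlda3. The cells share 1 capture, the FPKM scale of their own library and the trend in detected genes, so these values are descriptions and carry no p-value. The correlation was above 0 in 25 pairs and averaged 0.097, beside 0.015 over all pairs of 10598 genes. It was at least 0.3 in 5 pairs (13.9%), beside 2.76% of all gene pairs, and at most −0.3 in 1 pair (2.78%), beside 1.58%. The mean was 0.011 within cells up to 48, 0.13 within those above, and 0.039 with the number of detected genes regressed out.

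**Figure D3:**
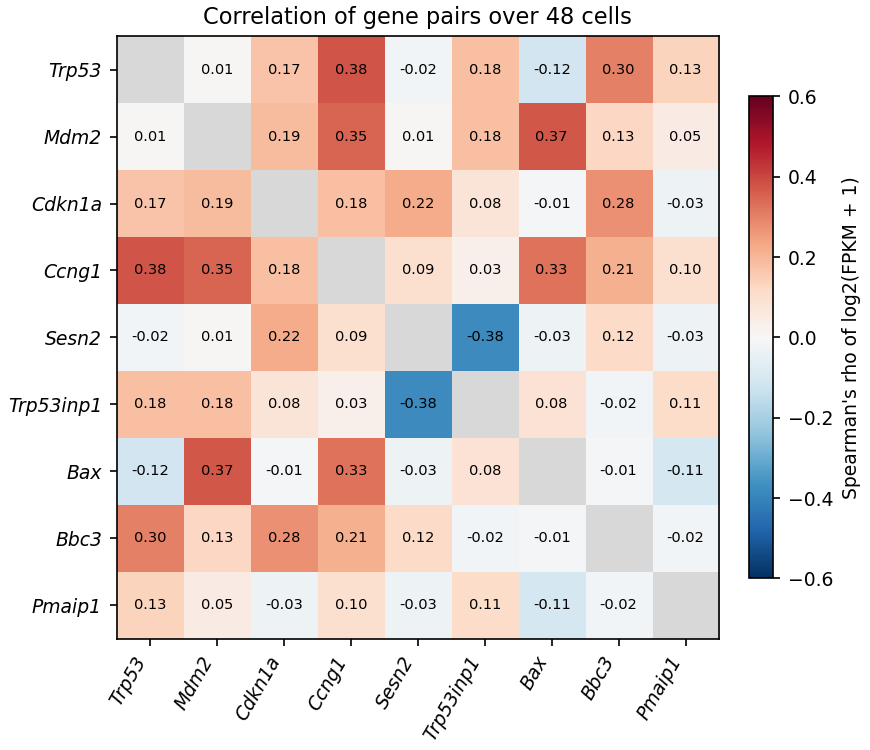
Spearman's rho between the 9 members detected in at least 5 of 48 cells, written in each square and coloured from blue (negative) to red (positive). Ccng1 has values of 0.33 to 0.38 with Trp53, Mdm2 and Bax, and the pair of Sesn2 and Trp53inp1 is the strongest negative one at −0.38.

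Of the 5 pairs at 0.3 or more, 3 joined Mdm2, Ccng1 and Bax. Mdm2 and Bax had a rho of 0.37 (Pearson's r 0.41, and 0.37 without the 2 cells farthest from the median of Mdm2). All 27 cells with Mdm2 had Bax, and so did 19 of the other 21. With Bax detected in 46 of 48 cells, such counts say little about a relation. Within the lower and the higher cell numbers rho was 0.22 and 0.45, and it was 0.32 with detected genes regressed out. Mdm2 and Ccng1 had a rho of 0.35 (r 0.38, and 0.35 without the 2 farthest cells), and 25 of the 27 cells with Mdm2 had Ccng1, against 12 of the other 21. That relation was 0.42 within the lower and 0.15 within the higher cell numbers, and 0.19 with cell cycle scores regressed out. Ccng1 and Bax had a rho of 0.33 (r 0.32, and 0.29 without the 2 farthest cells). Bax was found in 36 of the 37 cells with Ccng1 and in 10 of the other 11, which again says little.

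Trp53 was related to Ccng1 with a rho of 0.38 (r 0.37, and 0.36 without the 2 farthest cells), with 0.30 and 0.35 within the lower and the higher cell numbers and 0.34 with detected genes regressed out. Its rho with Bbc3 was 0.30 (r 0.27, and 0.21 without the 2 farthest cells). That value was 0.054 within the lower and 0.50 within the higher cell numbers, and 0.20 without the cells of few detected genes. Bbc3 was detected in only 3 of the 23 cells of higher number, so the 0.50 rests mostly on values below the detection mark. With Mdm2 the rho of Trp53 was 0.0053 and with Bax −0.12, both far short of the mark. Trp53 and Bax differed between the sets, with 0.090 in cells up to 48 and −0.45 in those above. That difference was not tested.

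The 1 pair at or below −0.3 was Sesn2 and Trp53inp1, both stress-response genes, with a rho of −0.38 (r −0.40, and −0.39 without the 2 farthest cells). Both were detected in 5 cells, Sesn2 alone in 9, Trp53inp1 alone in 20 and neither in 14. The value was −0.34 and −0.37 within the lower and the higher cell numbers, and −0.24 with detected genes regressed out. Cdkn1a and Bbc3 had 0.28 (5 cells with both), with 0.083 and 0.46 within the lower and the higher cell numbers, where 3 of 23 cells had Bbc3. Cdkn1a and Sesn2 had 0.22 (7 cells with both), with −0.094 and 0.56.

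The highest list correlation of any member was with the cell cycle. List scores were means of z-scored log2(FPKM + 1) over the list's members, and the 9 members were set against 17 lists. Of the 153 relations, 14 (9.15%) reached 0.3 in either direction, beside 6.27% for all genes, 11 of them positive and 3 negative. With the score of 18 genes of the G2 and M phases, 2 of 9 members reached 0.3, beside 5.56% of all genes. Ccng1 had a rho of 0.50 (r 0.49, and 0.47 without the 2 farthest cells), with 0.52 and 0.39 within the lower and the higher cell numbers and 0.47 with detected genes regressed out. Mdm2 had 0.46 (r 0.46, and 0.44 without the 2 farthest cells), with 0.46 and 0.33 within the sets and 0.31 with detected genes regressed out.

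The relation was spread over the list. The rho of Ccng1 was above 0 with 18 of 18 genes and at least 0.3 with 10, among them Birc5 (0.54), Cenpe (0.50), Ccnb1 (0.46) and Tpx2 (0.46), which act in the mitotic spindle, the kinetochore and entry into mitosis. That of Mdm2 was above 0 with 18 of 18 and at least 0.3 with 8, led by Cenpf (0.52), Bub1 (0.45) and Tpx2 (0.44). These 18 genes make up the score, so the counts describe the relation and are not separate support for it. Of the 27 cells with Mdm2, 19 lay above the median of the score, and 5 of the 21 without it did. For Ccng1 these counts were 21 of 37 and 3 of 11. The score itself followed the number of detected genes (rho 0.44 over 48 cells, 0.33 and −0.035 within the sets). Cdkn1a, the cell cycle inhibitor, had a median rho of 0.12 with the same 18 genes, and Trp53inp1 one of −0.047.

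**Figure D4:**
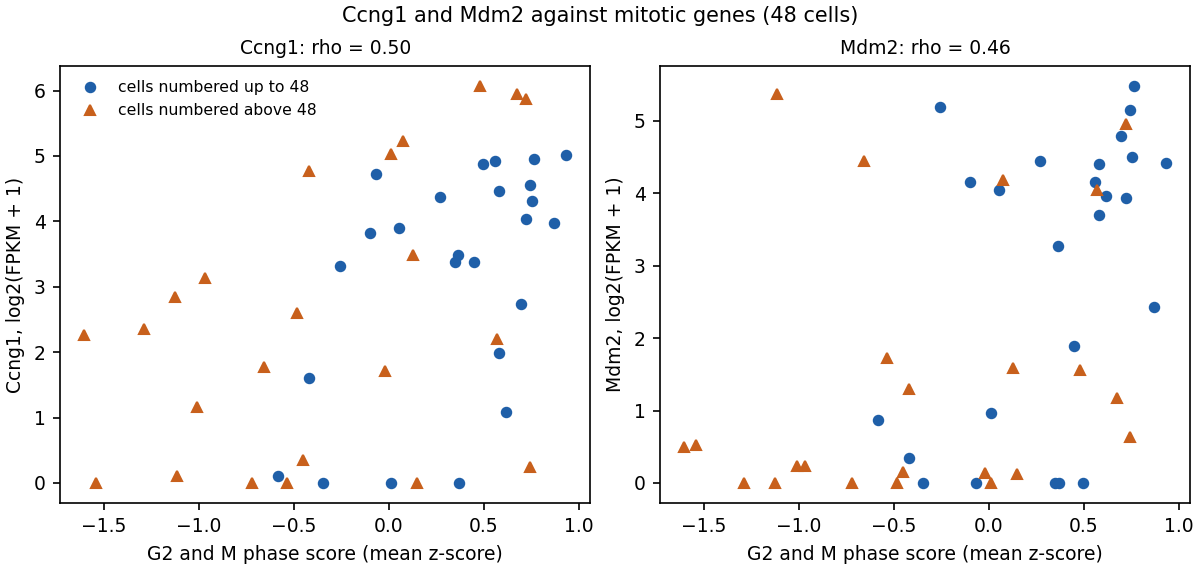
Ccng1 (left) and Mdm2 (right) as log2(FPKM + 1) against the score of 18 G2 and M phase genes (mean z-score) in each of 48 cells, with cells numbered up to 48 as circles and those above as triangles. The correlation (rho) is 0.50 for Ccng1 and 0.46 for Mdm2, and most cells without Mdm2 lie left of the middle.

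Of 15 regulators of p53, 12 (80%, beside 35.8% of all symbols) were detected in at least 25% of cells, among them Trp53bp1, a reader of DNA breaks (44 cells, median 9.43 FPKM), the deubiquitinase Usp7 (41 cells, 11.2 FPKM), the checkpoint kinase gene Chek1 (41 cells, 7.75 FPKM) and the acetyltransferase gene Crebbp (40 cells, 9.80 FPKM). Mdm4, which encodes the partner of MDM2 and was also found in 40 cells, had a median of 4.99 FPKM, and Mdm2 exceeded it in 20 cells. The p53 relatives Trp63 (0 cells, interval 0 to 7.40%) and Trp73 (2 cells) and the ARF locus Cdkn2a (1 cell) were at or near 0.

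Of 24 other p53 targets, 15 (62.5%, beside the same 35.8%) were detected in at least 25% of cells. Rps27l, a ribosomal protein gene that p53 activates, was found in 48 cells at a median of 720 FPKM, although reads may be shared with its close paralogue Rps27. The death receptor gene Tnfrsf10b was found in 47 cells (11.4 FPKM), the nuclease gene Aen in 40 (13.7 FPKM) and Triap1, a survival gene, in 39 (34.1 FPKM). The death receptor gene Fas and the stress cytokine gene Gdf15 were detected in 0 cells. The score of these targets had a rho of 0.46 with Trp53 (r 0.43, and 0.50 without the 2 farthest cells). This value was 0.38 and 0.23 within the lower and the higher cell numbers. With detected genes regressed out it was 0.296, just short of 0.3. With Ccng1 the score had 0.38 (r 0.39), with 0.31 and 0.33 within the sets. Because Gtse1, one of the targets, is itself a gene of the G2 phase, the score was also made without it, and the values were then 0.46 for Trp53 and 0.33 for Ccng1.

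Among single targets, Trp53 reached a rho of 0.3 with 2 of 20 (Tnfrsf10b, 0.49, and the kinase gene Plk2, 0.39) and Ccng1 with 4 (Gtse1, 0.42, Aen, 0.35, Rps27l, 0.32, and Plk2, 0.32). Bax did so with 2 (Eda2r, 0.33, and Polk, 0.32) and Mdm2 with none of the 20. Over these 4 members and 20 targets, 8 of 80 values (10%) reached 0.3, beside the 2.76% of all gene pairs. Of the 12 regulators that could be used, Ppm1d, the phosphatase that shuts the p53 response off, had 0.35 with Mdm2 and 0.32 with Ccng1, and Chek2 had 0.32 with Mdm2. These were the 3 of 48 values (6.25%) that reached 0.3, with none for Trp53 or Bax, although Ppm1d had 0.299 with Bax.

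Genes of the mitochondrial arm of apoptosis were detected unevenly. Of 5 anti-apoptotic BCL2 genes, 2 (40%, near the 35.8% of all symbols) passed 25% of cells: Mcl1 in 44 (median 11.3 FPKM) and Bcl2l1 in 39 (22.1 FPKM). Bcl2 was found in 8 cells and Bcl2l2 in 5. Bax exceeded Mcl1 in 37 of 48 cells and Bcl2l1 in 26. Of 8 other pro-apoptotic members of the family, 2 (25%, below that background) passed: Bad in 33 cells (9.22 FPKM) and Bid in 23 (0.670 FPKM), with Bok in 10 and Bcl2l11 in 8. Bak1, which can stand in for Bax, was detected in 5 cells and reached 5.82 FPKM at most.

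Of 17 genes of the caspase pathway, 14 (82.4%, beside 35.8% of all symbols) passed 25% of cells. Cycs, which encodes cytochrome c, was found in 48 cells at a median of 111 FPKM, and the inhibitors Birc6 (8.42 FPKM) and Cflar (9.77 FPKM) and the caspase substrate gene Parp1 (57.4 FPKM) in 48 cells each. The initiator caspase gene Casp8 was found in 2 cells. Of 10 genes of the integrated stress response, which can switch on Sesn2 and Pmaip1 without p53, 5 (50%) passed: Asns (200 FPKM), Atf4 (75.1 FPKM) and Psat1 (89.6 FPKM) in 47 cells each, Ppp1r15a (16.1 FPKM) in 38, and Vldlr in 16. Ddit3, which encodes the pro-apoptotic factor CHOP, was found in 8 cells. The integrated stress response score had a rho of 0.035 with Sesn2 and −0.23 with Pmaip1, and its part in their levels was not tested.

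Cdkn1a had a rho of 0.34 with the score of the other pro-apoptotic BCL2 genes (r 0.34, and 0.35 without the 2 farthest cells). Of its 19 cells, 14 lay above the median of that score, against 10 of the 29 others. The value rested on the lower cell numbers, with 0.64 there and −0.071 in the higher ones. With the mesenchymal score Cdkn1a had −0.30 (r −0.34), with −0.38 and −0.18 within the sets and −0.095 with each cell scaled to 1000000. Bbc3 had 0.33 with the integrated stress response and 0.32 with immediate early and heat shock genes, but r was only 0.19 and 0.055, and Bbc3 was detected in 9 cells. Within the lower and the higher cell numbers the first was 0.20 and 0.40 and the second 0.38 and 0.24. Bbc3 was detected in 6 of 25 and 3 of 23 cells of these sets. Trp53inp1 had 0.30 with genes of the primitive streak and nascent mesoderm (r 0.24), and 15 of its 25 cells lay above the median of that score. This value was 0.29 and 0.34 within the lower and the higher cell numbers, and 0.24 with detected genes regressed out.

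Pmaip1 was the member with most relations to cell identity. Its rho was −0.43 with the paraxial mesoderm score (r −0.20, and −0.16 without the 2 farthest cells), −0.34 with the mesenchymal score (r −0.26), 0.36 with pluripotency genes (r 0.24), 0.35 with epithelial genes (r 0.22) and 0.30 with housekeeping genes (r 0.37). The value with housekeeping genes fell to 0.11 with each cell scaled to 1000000 and to 0.041 with short RNA rows also left out. The value with the paraxial score was −0.38 and −0.61 within the lower and the higher cell numbers and −0.46 with detected genes regressed out. That with pluripotency genes was 0.41 in the lower and 0.052 in the higher cell numbers, and that with epithelial genes was 0.25 and 0.28. Only 4 of the 23 cells of higher number had Pmaip1, so the values of that set rest mostly on cells without it. Since Pmaip1 was listed at 0 in 30 cells, rank and linear correlations weigh different cells, and the linear values were the smaller ones for these 4 cell identity scores.

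Cell counts show what lies behind these values. Of the 13 cells with Pmaip1, 3 had the retinoic acid synthesis gene Aldh1a2, against 18 of the 35 without it, and 3 had Foxc1, against 15. The somite genes Meox1, Pax3 and Tcf15 were found in 0 of the 13 cells and in 6, 7 and 7 of the 35. Msgn1 (1 of 13 and 4 of 35 cells) and Dll1 (3 of 13 and 9 of 35) were about even, and Tbx6 ran the other way (4 of 13 and 9 of 35), so the share was lower with Pmaip1 for 9 of 10 genes. Of the 5 cells of highest Pmaip1, 4 lay above the median of the paraxial score. Of the mesenchymal genes, rho with Pmaip1 was below 0 for 7 of 10 and ranged from −0.40 (Zeb1, 3 of 13 and 25 of 35 cells) to 0.20 (Cdh2). Snai2 ran the other way, with 3 of 13 and 3 of 35 cells. Among the pluripotency genes, Tdgf1 was found in 11 of 13 and 22 of 35 cells, Sox2 in 7 and 11, and Pou5f1 in 8 and 18. Zfp42 (4 of 13 and 10 of 35) was about even, and Nanog ran the other way (12 of 13 and 34 of 35). The share was higher with Pmaip1 for 10 of 12 genes and lower for 1, and rho ranged from 0.013 (Tfcp2l1) to 0.39 (Tdgf1).

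**Figure D5:**
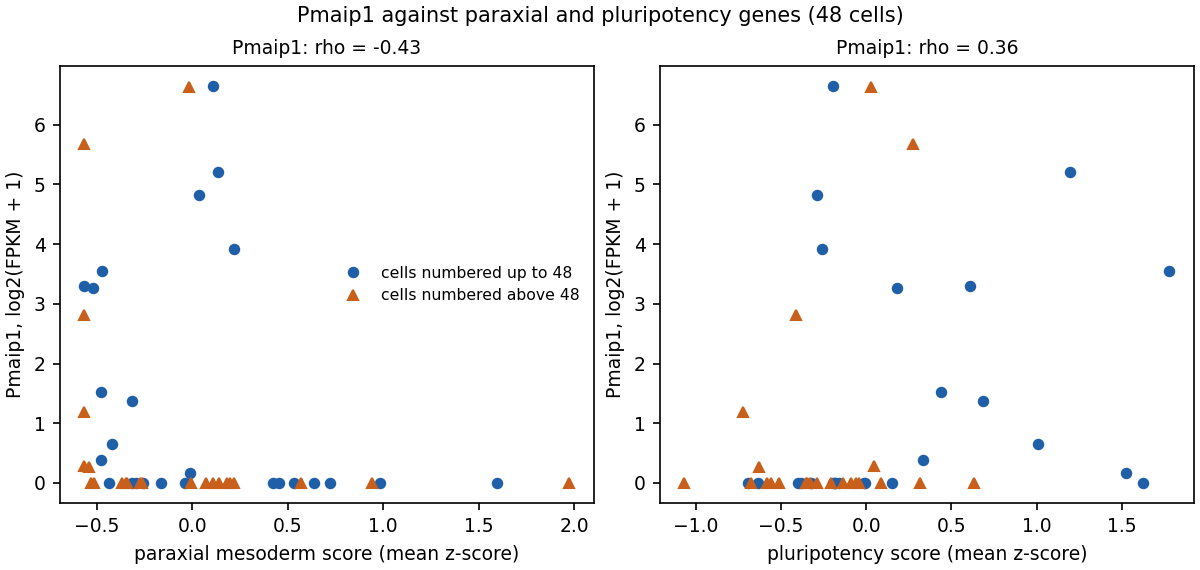
Pmaip1 as log2(FPKM + 1) against the paraxial mesoderm score (left) and the pluripotency score (right), both as mean z-scores, in each of 48 cells (circles up to cell number 48, triangles above). The correlation (rho) is −0.43 and 0.36, and the cells of highest paraxial score all have Pmaip1 at 0.

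The genes whose pattern over the 48 cells was most like that of each member were sought among 5852 symbols detected in at least 24 cells, short RNAs left out. For Trp53 they were 2900092E17Rik (rho 0.61), Pgm3 (0.54), Rlim (0.53), Shcbp1 (0.51) and Mier2 (0.51). For Mdm2 they were Npat (0.58), Ubr1 (0.54), Cenpf (0.52), Pja2 (0.50) and Asap1 (0.50). For Ccng1 they were Nusap1 (0.56), Birc5 (0.54), D2Ertd750e (0.53), Kif4 (0.53) and Cenpe (0.50). Birc5 and Cenpe, like Cenpf for Mdm2, belong to the G2 and M phase list above. For Trp53inp1 they were Rbm15 (0.53), Rad17 (0.50), Pwp2 (0.49), Tiparp (0.47) and Pole3 (0.46), and for Bax they were Evi5 (0.50), Med29 (0.47), Fert2 (0.47), Sept11 (0.47) and Spg21 (0.46). None of these 25 genes was another of the 10 members. As the highest of 5852 values each, these correlations are a ranking and say nothing of how often such values arise.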

How the data were processed

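Each of the 48 cells has 1 column in the table deposited by the authors. Its values were treated as FPKM: no unit is named in it, and Cufflinks 2.2.1.0, which reports FPKM, is listed in the submitters' processing notes with CASAVA 1.8.2, TopHat 0.7 and mm10. Neither the annotation, the treatment of strand and of reads with several matches, nor read counts were given in the sources used here. Among the 23746 rows, those of 240 symbols found more than once were summed. No cell was removed and no doublet caller was run, as the table holds no counts. Levels entered correlations as log2(FPKM + 1). Cell numbers come from the titles, which do not say what they stand for. The trend of variability was a local regression with span 0.4. Few detected genes means more than 3 median absolute deviations below the median. The members, lists and marks (detection at 1 FPKM, rho of 0.3, 25% of cells) were chosen with earlier results of these data known. Named were all members, per pathway list up to 4 genes detected in most cells and that of highest mean, the 5 nearest genes per member found in at least 24 cells, and list scores past 0.3. Other genes, such as Mdm4, Trp63, Trp73, Cdkn2a, Fas, Gdf15, Bak1, Casp8, Ddit3, Vldlr, Gtse1, Plk2, Ppm1d the cell type markers and the single genes beside Pmaip1 and the G2 and M phase score, were named after their values were seen. Gene positions follow GENCODE M21 on GRCm38 and promoters RefSeq. The correlation calculation was run on shuffled values with planted relations to Trp53. Shuffled values lack the trend in detected genes, so that run does not check the reported correlations. Python 3.11.15, numpy 2.4.6, pandas 2.3.3, scipy 1.17.1 and statsmodels 0.14.6 were used. The alternatives tried were other detection marks (0.1 and 10 FPKM), pseudocount (0.1), member and mean filters, scaling to 1000000 per cell, cell subsets and regressions. Some single genes of the lists are not reported here.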

Additional observations from a re-analysis of the deposited data

How the results depend on the processing

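At a detection mark of 10 FPKM, 4 members instead of 8 reached 25% of cells (9 at 0.1 FPKM and under both scalings), and the median number of members per cell was 3 instead of 5. The mean pairwise rho of 0.097 became 0.18 with each cell scaled to 1000000, and 0.11 with short RNA rows also left out. It was 0.011 in cells numbered up to 48, 0.039 with detected genes regressed out and 0.051 with cell cycle scores regressed out. Of the 54 values of named pairs under other settings (the pseudocount, which cannot move a rank correlation of 2 genes, left out), 41 kept both their sign and their side of 0.3 and 13 fell short of it. Of the 112 values of named list relations, 86 kept both, 25 fell short, and 1 changed sign: Cdkn1a with the other pro-apoptotic BCL2 genes, at −0.071 in cells above 48, and the cause was not tested. The relations of Ccng1 and Mdm2 with the G2 and M phase score ranged from 0.39 to 0.57 and from 0.31 to 0.62 and kept their side in all settings run. Those were not run with the cell cycle regressed out. Leaving out the cell highest in 1 gene of a pair, chosen after seeing the data, took Trp53 with Bbc3 to 0.299 and Ccng1 with Bax to 0.295. Scaling each cell to 1000000 also raised Trp53 with the other p53 targets to 0.71, Mdm2 with Bax to 0.60 and Trp53 with Bbc3 to 0.52. With short RNA rows left out of that scaling these 3 values were 0.44, 0.42 and 0.36. Scaling raised the median of Trp53 from 391 to 550, or 729 with short RNA rows left out. Read depth is unknown, and with 48 cells in 1 group and no culture named, neither replicate error nor an effect of Mesp1 can be measured. No paired analysis was possible because there is 1 group and no replicate number.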

Other observations

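Several other p53 targets were read beside the members. Btg2, an anti-proliferative gene, was detected in 36 cells at a median of 25.5 FPKM, Gtse1 in 38 (18.04 FPKM), and Zmat3 and Gadd45a in 32 each (2.95 and 2.44 FPKM). Perp, Rrm2b, Plk3, Ddit4 and Fdxr were found in 2 to 8 cells. The metabolic target Tigar, listed under its older symbol 9630033F20Rik, was found in 17 cells and had a rho of −0.42 with Ccng1 over the 48 cells, the 1 value at or below −0.3 among the 80 between Trp53, Mdm2, Ccng1 and Bax and 20 targets. These genes were named after their values were seen.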
